A study of Mus musculus with 12 samples.

Results

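The endoplasmic reticulum (ER) folding and unfolded protein response genes described here are 33 genes picked by symbol, and all 33 were found among the 12441 genes of the deposited tables. They are 7 lumenal chaperones and co-chaperones, 2 lectin chaperones, 4 disulfide isomerases, 2 secreted or resident products of the response, 9 components of ER-associated degradation, 3 sensors and transcription factors, and 6 subunits of the translocon and the signal sequence receptor. RNA was sequenced from mouse bone marrow-derived macrophages, the phagocytes that bone marrow yields when it is grown for 6 days with 10% L929-conditioned medium. There were 12 libraries, 3 in each of 4 groups: D316Y macrophages with lipopolysaccharide (LPS) at 100 ng/mL for 24 h, WT macrophages with the same LPS, D316Y macrophages left unstimulated, and WT macrophages left unstimulated. D316Y stands for a homozygous amino acid substitution in COQ6, a monooxygenase of coenzyme Q synthesis, and WT for the genotype without it; LPS is the bacterial cell-wall component sensed through Toll-like receptor 4. All groups were grown in the same way. The age, sex and strain of the mice, and whether the replicates came from separate mice, are not given in the labels, so the spread that the p-values rest on is that between libraries and may be technical. A substitution of this kind leaves no mark on gene-level values, so the genotype labels could not be checked from them.

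Secreted and membrane proteins enter the ER through the Sec61 channel and are folded there by Hsp70-type and Hsp90-type chaperones, by the lectins calnexin and calreticulin, and by disulfide isomerases. When unfolded proteins build up, the membrane sensors IRE1, ATF6 and PERK start the unfolded protein response, in which IRE1 splices the Xbp1 message and ATF6 is cut to release a transcription factor, and both outputs raise chaperone and degradation genes. Macrophages load the ER heavily when they secrete cytokines, and IRE1 and XBP1 are known to take part in Toll-like receptor signalling.

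Each library held 32.8 to 47.2 M reads, and the members' reads made up 0.571% to 0.848% of them. Values are CPM, read counts scaled by the authors' effective library sizes. These sizes exceed the read totals in the unstimulated libraries (41.2 to 55.8 M) and lie below them in the LPS libraries (32.6 to 43.1 M), where the 10 most abundant genes took 32.9% to 37.2% of the reads, against 19.9% to 21.7% in unstimulated libraries. Every "higher" and "lower" under LPS is therefore relative to that scaling; for members that passed the test, values scaled to plain read totals ("total-read scaling") are given too. Both unstimulated libraries numbered replicate 1 stood apart. Their share of mitochondrial reads was 0.949% in D316Y and 0.449% in WT, against 1.97% to 2.97% in the other 4 unstimulated libraries. The D316Y library was the highest of its group for 27 members and the WT library for 25 members of 33. All 10 macrophage markers had values here, and their sum was 55144 to 71075 CPM in LPS libraries, against 32746 to 39691 CPM in unstimulated libraries. Most of the sum was Lyz2. Cd68 went the other way, with 597 to 786 CPM in LPS libraries, against 1467 to 2751 CPM in unstimulated libraries, and so did Mrc1, with 2.57 to 9.85 CPM in LPS libraries, against 59.4 to 138 CPM in unstimulated libraries.

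Many genes of this set carry ER stress elements, promoter sequences through which ATF6, XBP1 and the factor NF-Y are known to act. A RefSeq promoter window (250 bases before to 50 after the gene start, build GRCm38.p6) was at hand for 27 members. The ER stress element, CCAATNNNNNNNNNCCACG on either strand, was in 9 of the members' 28 windows and in 39 of 32851 windows in all (0.119%). The shorter ER stress element II, ATTGGNCCACG, was in 2 member windows and in 12 in all (0.0365%); no match of one overlapped a match of the other. The ATF6 and XBP1 core, TGACGTGG, was in none of the member windows and in 0.676% of all windows. The matches are given with the fixed bases in capitals, each read in the direction of the element, and Hsp90b1 holds a pair of them. Members not listed had no match in their window or no window at hand, which does not set them outside the response.
Hspa5: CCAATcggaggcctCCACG
Hsp90b1, upstream match: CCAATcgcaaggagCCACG
Hsp90b1, downstream match: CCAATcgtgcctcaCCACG
Dnajc3: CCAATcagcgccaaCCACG
Calr: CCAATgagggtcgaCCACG
Canx: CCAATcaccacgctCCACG
Pdia6: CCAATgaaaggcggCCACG
Creld2: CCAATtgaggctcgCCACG
Syvn1: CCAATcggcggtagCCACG
Derl3: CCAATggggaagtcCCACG
Dnajb11, element II: ATTGGcCCACG
Herpud1, element II: ATTGGgCCACG

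**Figure D1:**
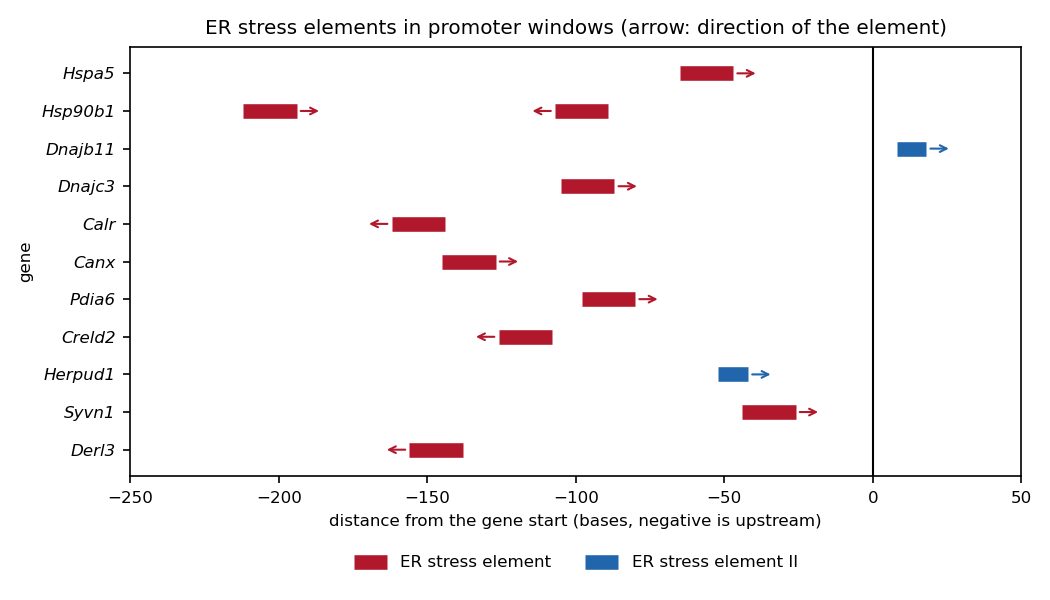
Positions of the ER stress elements in the RefSeq promoter windows of the 11 members that hold one. The horizontal axis is the distance from the gene start in bases, each bar is a match (red, ER stress element; blue, element II), and the arrow gives its direction; all matches lie upstream of the start except that of Dnajb11, at 8 to 18 bases after it.

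Whole upstream windows are printed for 3 of these genes, chosen because their values under LPS differ in kind: Herpud1 fell, Calr rose, and Creld2 passed in neither genotype. Each holds the 250 bases before the RefSeq gene start, 5′ to 3′ on the gene's strand, and the capitals mark the match; in Calr and Creld2 the element lies on the opposite strand. Herpud1 is at chr8:94386179-94386428 (plus strand), Calr at chr8:84846932-84847181 (minus strand) and Creld2 at chr15:88819396-88819645 (plus strand), all in GRCm38.p6.
Herpud1: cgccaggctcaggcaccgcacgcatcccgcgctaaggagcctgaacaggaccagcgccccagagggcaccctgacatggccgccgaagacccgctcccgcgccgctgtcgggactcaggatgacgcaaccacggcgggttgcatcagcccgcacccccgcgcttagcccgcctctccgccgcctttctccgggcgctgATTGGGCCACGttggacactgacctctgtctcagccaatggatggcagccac
Calr: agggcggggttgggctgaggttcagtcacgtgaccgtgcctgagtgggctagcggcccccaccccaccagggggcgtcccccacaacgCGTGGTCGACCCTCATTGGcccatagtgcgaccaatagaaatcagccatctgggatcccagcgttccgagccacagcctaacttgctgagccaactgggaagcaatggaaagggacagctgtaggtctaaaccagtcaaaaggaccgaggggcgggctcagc
Creld2: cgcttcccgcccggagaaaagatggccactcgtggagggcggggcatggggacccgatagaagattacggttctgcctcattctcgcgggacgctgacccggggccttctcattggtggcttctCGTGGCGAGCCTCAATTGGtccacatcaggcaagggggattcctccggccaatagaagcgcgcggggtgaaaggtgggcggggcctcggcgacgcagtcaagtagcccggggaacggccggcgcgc

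Set against transcript length, the module spanned a wide range of levels. Pdia3, the disulfide isomerase ERp57 that works with the lectin chaperones, and Hspa5, the Hsp70 chaperone BiP, were among the top 3 members in all 4 groups. Pdia3 averaged 277 ± 12.4 RPKM (CPM per kilobase of exon; SD, n = 3) in D316Y LPS, 339 ± 56.3 in WT LPS, 226 ± 85.2 in D316Y unstimulated and 246 ± 54.04 in WT unstimulated libraries. Hspa5 averaged 248 ± 1.17, 284 ± 51.01, 219.6 ± 65.3 and 270.1 ± 82.3 RPKM in the same 4 groups, so the order of these neighbours did not differ beyond their spread except in D316Y LPS libraries. At the other end stood Ern1, which encodes the sensor IRE1 alpha, and Derl3, a derlin of the degradation channel. Ern1 averaged 0.721 ± 0.0471 RPKM in D316Y LPS, 0.767 ± 0.0877 in WT LPS, 0.776 ± 0.101 in D316Y unstimulated and 0.834 ± 0.127 in WT unstimulated libraries. Derl3 averaged 0.31 ± 0.138 RPKM in D316Y LPS, 0.231 ± 0.038 in WT LPS, 0.581 ± 0.188 in D316Y unstimulated and 0.648 ± 0.16 in WT unstimulated libraries. The spread within a group differed: the median coefficient of variation of the members' CPM was 6.53% in D316Y LPS, 14.7% in WT LPS, 21.2% in D316Y unstimulated and 16.0% in WT unstimulated libraries.

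**Figure D2:**
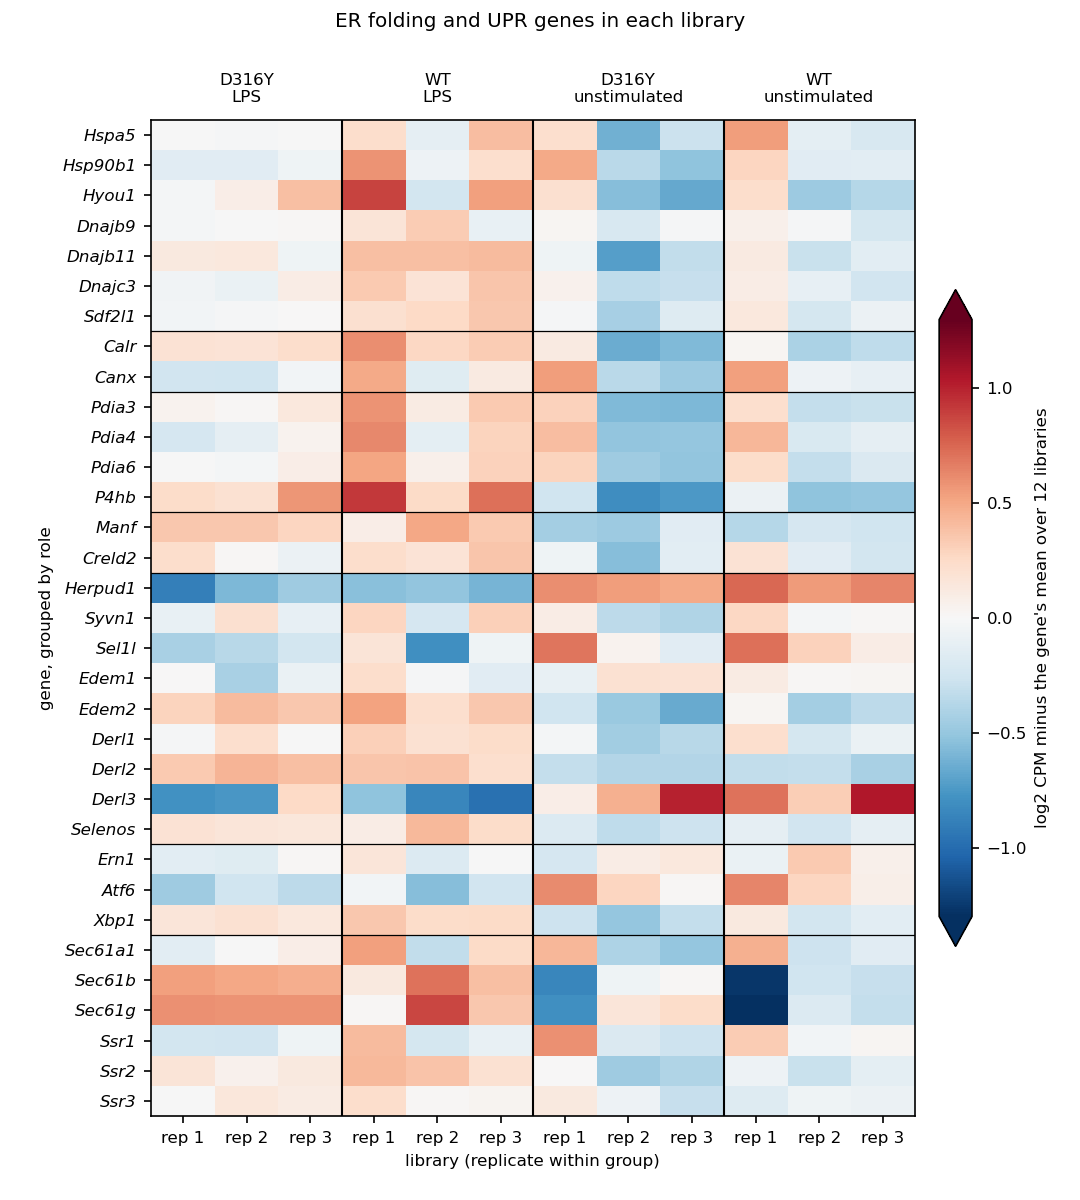
Each row is 1 of the 33 members, grouped by role, and each column 1 library; colour gives log2 CPM minus the gene's mean over the 12 libraries (red above, blue below, with values past the ends of the scale drawn in the end colour). Herpud1 is blue in all 6 LPS libraries and red in all 6 unstimulated ones, and both unstimulated replicate 1 columns are redder than the columns beside them for most chaperones and bluer for Sec61b and Sec61g.

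The first question was how 24 h of LPS changed these genes in each genotype. On the authors' scaling 10 members rose in D316Y macrophages and 2 fell, and 12 rose and 3 fell in WT macrophages. Herpud1 and Atf6 fell in both genotypes, and 10 members rose in both: Dnajb11, Calr, P4hb, Manf, Edem2, Derl2, Selenos, Xbp1, Sec61b and Ssr2 (under total-read scaling Dnajb11, Selenos and Ssr2 were negative in both genotypes and Xbp1 in WT). The 18 members that passed in neither genotype include Hspa5 (BiP) and the Hsp90-type chaperone gene Hsp90b1. Calls are from limma, a linear model with a shared estimate of the spread, at a Benjamini-Hochberg adjusted p under 0.05 over all genes tested. Called higher were 30.3% of the members in D316Y, against 19.4% of all 11795 genes, and 36.4% in WT, against 18.1% of all 11663 genes. Called lower were 6.06% of the members in D316Y and 9.09% in WT, against 19% of all genes in each. The members' median log2 fold change was 0.22 in D316Y (all genes, -0.026) and 0.32 in WT (all genes, -0.0056). In D316Y 12 members lay above and 3 below the unstimulated libraries without overlap (26.7% and 26.1% of all genes), and in WT 14 above and 3 below (22.9% and 23.9% of all genes). In bulk RNA, fewer cells of a type and less RNA per cell cannot be told apart.

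These counts depend on how libraries are scaled. With total-read scaling, chosen after the data were seen, no member was called higher in either genotype, and 11 were called lower in D316Y and 8 in WT. That scaling moved the median of all genes to -0.54 in D316Y and -0.51 in WT and the members' median to -0.30 and -0.19. It shifts the LPS value of every gene by the same amount. The members' median therefore stayed 0.24 above that of all genes in D316Y and 0.33 above it in WT by construction, which is no test of that gap. The sign differed between the scalings for 17 members in D316Y and 18 in WT; of those called on the authors' scaling, these were Dnajb11, Selenos and Ssr2 in both genotypes and Xbp1 and Dnajc3 in WT. Newly called lower with total-read scaling were 9 members in D316Y (Dnajb9, Dnajc3, Sdf2l1, Sel1l, Edem1, Derl3, Ern1, Ssr1 and Ssr3) and 5 in WT (Syvn1, Sel1l, Edem1, Ern1 and Ssr1). Single libraries also moved the counts. The number called higher in D316Y was 6 without unstimulated replicate 2, 5 without LPS replicate 1, 6 without LPS replicate 2 and 6 without LPS replicate 3. Over all genes these settings called 1874 of 11748, 1849 of 11782, 1789 of 11817 and 2000 of 11799 higher, against 2287 of 11795 in the main fit. The number called lower was 1 without unstimulated replicate 1 (all genes, 2043 of 11890) or LPS replicate 1 (all genes, 1785 of 11782). The number called higher in WT was 6 without unstimulated replicate 2 (all genes, 1851 of 11613, against 2114 of 11663 in the main fit). Without both unstimulated replicate 1 libraries 16 members were called higher in D316Y and 18 in WT. Calls over all genes rose there too, to 2639 of 11890 higher in D316Y and 2464 of 11752 in WT. P4hb, Manf, Edem2 and Derl2 stayed called higher, and Herpud1 lower, whichever single library was left out, in both genotypes; so did Xbp1 in D316Y, and Sec61b (higher) and Derl3 (lower) in WT.

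**Figure D3:**
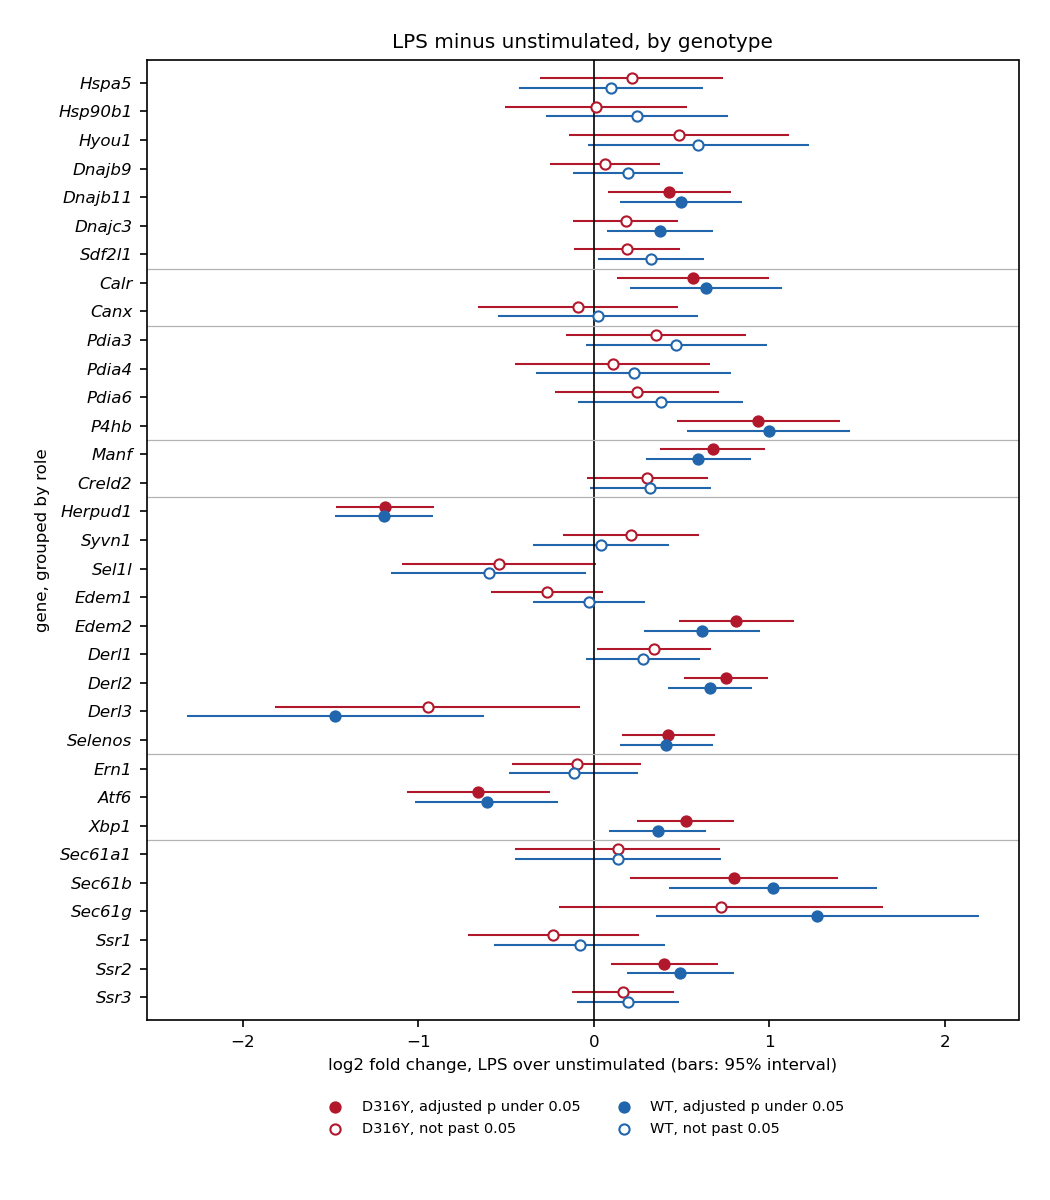
The log2 fold change of each member, LPS over unstimulated on the authors' scaling, is shown with its 95% interval for D316Y (red) and WT (blue); filled points passed an adjusted p of 0.05. Herpud1 lies near -1.20 in both genotypes, and the filled points furthest right are P4hb in D316Y and Sec61g in WT; with total-read scaling every point moves left, 17 points of D316Y and 18 of WT change sign (among the filled ones Dnajb11, Selenos and Ssr2 in both genotypes and Dnajc3 and Xbp1 in WT), and none on the right passes.

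Herpud1 encodes a membrane scaffold of the HRD1 ubiquitin ligase complex, and its promoter carries the element II printed above; the gene is at chr8:94386438-94395377, plus strand (GRCm38). It had 44.7, 55.4 and 60.3 CPM in D316Y LPS libraries, against 126, 121 and 117 CPM in D316Y unstimulated libraries. In WT it had 57.04, 58.1 and 54.6 CPM in LPS libraries, against 139, 122 and 129 CPM in unstimulated libraries. Every LPS library was below every unstimulated library, by a wide gap, in both genotypes. The log2 fold change was -1.19 ± 0.13 (SE) in D316Y (adjusted p = 8.4e-06) and -1.20 ± 0.13 in WT (adjusted p = 8.99e-06), or -1.71 in D316Y and -1.71 in WT with total-read scaling. It had the smallest adjusted p of the 33 members in both genotypes. The other core parts of the complex, Syvn1 (the ligase HRD1) and Sel1l (its adaptor), did not pass in either genotype on the authors' scaling: the log2 fold change of Syvn1 was 0.21 in D316Y and 0.041 in WT, and that of Sel1l was -0.54 in D316Y and -0.60 in WT. With total-read scaling Sel1l was called lower in both, at -1.05 in D316Y (adjusted p = 0.00457) and -1.11 in WT (adjusted p = 0.00343), while Syvn1 was at -0.30 in D316Y, not called, and at -0.47 in WT, called lower (adjusted p = 0.0408).

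Among the derlins, membrane proteins of the degradation channel, Derl2 rose in both genotypes and Derl3 fell in WT. Derl2 (chr11:71007164-71019841, minus strand) had 149, 160.1 and 155 CPM in D316Y LPS libraries, against 95.1, 90.4 and 90.2 CPM in D316Y unstimulated libraries. It had 151, 152 and 137 CPM in WT LPS libraries, against 94.6, 94.95 and 88.1 CPM in WT unstimulated libraries. The groups were tight and did not overlap. The log2 fold change was 0.75 ± 0.11 (SE) in D316Y (adjusted p = 0.000121) and 0.66 ± 0.11 in WT (adjusted p = 0.000365), and it stayed positive with total-read scaling, at 0.24 in D316Y and 0.16 in WT, where it was not called. Derl3 was scarce, with 0.453, 0.463 and 0.936 CPM in D316Y LPS libraries, against 0.834, 1.07 and 1.57 CPM in D316Y unstimulated libraries. It had 0.545, 0.434 and 0.401 CPM in WT LPS libraries, against 1.28, 0.979 and 1.61 CPM in WT unstimulated libraries. D316Y LPS replicate 3 reached into the range of its unstimulated group, while the WT groups were separate. Derl3 missed the threshold in D316Y, at -0.95 ± 0.40 (adjusted p = 0.0809), and fell in WT, with a log2 fold change of -1.47 ± 0.39 (adjusted p = 0.0095); with total-read scaling it was called lower in both, at -1.46 in D316Y and -1.98 in WT. The difference between the genotypes was 0.53 ± 0.57 (adjusted p = 0.999). Derl1, the family's other member, was at 0.34 in D316Y and 0.28 in WT and passed in neither, though it was called higher in both without both unstimulated replicate 1 libraries.

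Derl3 and Herpud1 are known to be high in plasma cells, so markers of that lineage were read beside them. Of 10 B and plasma cell markers 2 had values here, Cd79b and Ighm, and their sum was 7.83 to 9.94 CPM in D316Y LPS and 9.93 to 11.1 CPM in WT LPS libraries, against 203 to 264 CPM in D316Y unstimulated and 248 to 328 CPM in WT unstimulated libraries. Nearly all of the unstimulated sum was Ighm, while Cd79b was 6.25 to 9.22 CPM in LPS libraries and 3.40 to 5.62 CPM in unstimulated ones. The part of such cells in the fall of Herpud1 and Derl3 was not tested.

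Edem2 and Edem1 encode mannosidase-family proteins that mark misfolded glycoproteins for degradation. Edem2 had 119, 129 and 124 CPM in D316Y LPS libraries, against 81.3, 69.8 and 61.8 CPM in D316Y unstimulated libraries. In WT it had 139.9, 113 and 124 CPM in LPS libraries, against 98.9, 71.8 and 76.8 CPM in unstimulated libraries. Every LPS library lay above every unstimulated one. Edem2 rose by 0.81 ± 0.15 (log2, SE) in D316Y (adjusted p = 0.000807) and by 0.62 ± 0.15 in WT (adjusted p = 0.00589); with total-read scaling it stood at 0.30 and 0.11 and was not called. Edem1 was at -0.27 in D316Y and -0.029 in WT and passed in neither on the authors' scaling; with total-read scaling it was called lower in both, at -0.78 in D316Y and -0.54 in WT. Selenos, a selenoprotein that ties the ATPase VCP to the ER membrane, had 158, 154 and 154 CPM in D316Y LPS libraries, against 122, 110.3 and 115 CPM in D316Y unstimulated libraries. It had 147, 185 and 163 CPM in WT LPS libraries, against 127, 116 and 127 CPM in WT unstimulated libraries. The groups did not overlap in either genotype. It rose by 0.42 ± 0.12 in D316Y (adjusted p = 0.0141) and 0.41 ± 0.12 in WT (adjusted p = 0.0174), but its sign was negative with total-read scaling (-0.09 and -0.10). The call was lost in D316Y without unstimulated replicate 2 or LPS replicate 1 (adjusted p up to 0.0541) and in WT without unstimulated replicate 2 or LPS replicate 2 (up to 0.0787).

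Among the disulfide isomerases P4hb, the founding protein disulfide isomerase (chr11:120560298-120573253, minus strand), stood out from its 3 relatives. It had 611, 592 and 768 CPM in D316Y LPS libraries, against 432, 296 and 309 CPM in D316Y unstimulated libraries. In WT it had 980.1, 613 and 851 CPM in LPS libraries, against 489.7, 361 and 365 CPM in unstimulated libraries. The LPS libraries were all higher, and within WT the LPS libraries ranged widely, with replicate 1 on top. P4hb rose 1.92-fold in D316Y (log2 fold change 0.94 ± 0.21 SE, adjusted p = 0.00339) and 2.00-fold in WT (1.00 ± 0.21, adjusted p = 0.00246), and remained positive but not called with total-read scaling (0.42 and 0.49). Pdia3 was at 0.35 in D316Y and 0.47 in WT, Pdia6 at 0.25 and 0.38 in the same genotypes, and Pdia4 at 0.11 and 0.23. None of these 3 passed on the authors' scaling. Pdia3 and Pdia6 were called higher in both genotypes without both unstimulated replicate 1 libraries, which carry their highest unstimulated values.

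The lectin chaperones bind sugar-bearing clients, calreticulin (Calr) in the lumen and calnexin (Canx) in the membrane. Calr had 492, 488 and 507 CPM in D316Y LPS libraries, against 468, 277 and 289.7 CPM in D316Y unstimulated libraries. It had 655, 521 and 544 CPM in WT LPS libraries, against 440.1, 325 and 344 CPM in WT unstimulated libraries. Each LPS library was above each unstimulated one, but unstimulated replicate 1 came close to the LPS range in D316Y. Calr rose by 0.57 ± 0.20 (log2, SE) in D316Y (adjusted p = 0.0388) and 0.64 ± 0.20 in WT (adjusted p = 0.0229), with 0.051 and 0.13 under total-read scaling. In D316Y the call held without unstimulated replicate 1 and was lost without any 1 of the other 5 libraries (adjusted p up to 0.156); in WT it was lost without unstimulated replicate 2, unstimulated replicate 3 or LPS replicate 1 (up to 0.0826). Canx did not pass, at -0.09 in D316Y and 0.025 in WT.

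The lumenal chaperones gave few calls. Hspa5 had 1052, 1042 and 1049 CPM in D316Y LPS libraries, against 1229.5, 686 and 871 CPM in D316Y unstimulated libraries. It had 1234, 971 and 1399 CPM in WT LPS libraries, against 1543, 969 and 915 CPM in WT unstimulated libraries. The groups overlapped in both genotypes, with unstimulated replicate 1 the highest of its group each time. The log2 fold change was 0.22 ± 0.24 in D316Y (adjusted p = 0.52) and 0.10 ± 0.24 in WT (adjusted p = 0.784), with 95% intervals of -0.31 to 0.74 and -0.43 to 0.62. With total-read scaling it was -0.30 in D316Y and -0.41 in WT, not called in either. Over 15 alternative settings the D316Y value ran up to 0.44, and Hspa5 was called higher in 1 of them (limma, adjusted p = 0.0327). In WT it was called in 0 of 15. Dnajb11, the co-chaperone ERdj3 that carries clients to BiP, had 58.5, 58.9 and 51.5 CPM in D316Y LPS libraries, against 51.5, 32.7 and 42.9 CPM in D316Y unstimulated libraries. It had 70.3, 70.2 and 71.3 CPM in WT LPS libraries, against 58.1, 43.95 and 48.9 CPM in WT unstimulated libraries. The WT LPS libraries were nearly equal and well above their unstimulated group, whereas in D316Y LPS replicate 3 and unstimulated replicate 1 almost met. Dnajb11 rose by 0.43 ± 0.16 in D316Y (adjusted p = 0.0498) and 0.50 ± 0.16 in WT (adjusted p = 0.0272), and its sign was negative with total-read scaling (-0.084 and -0.011). Both calls were lost without any 1 of 5 libraries, all but unstimulated replicate 1, with adjusted p up to 0.233 in D316Y and 0.103 in WT; without D316Y unstimulated replicate 2 the D316Y value was 0.26.

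Dnajc3, the co-chaperone p58IPK, rose in WT by 0.38 ± 0.14 (log2, SE; adjusted p = 0.0481), with its sign negative under total-read scaling (-0.13), and was at 0.18 ± 0.14 in D316Y (adjusted p = 0.339; with total-read scaling called lower, at -0.33). The WT call was lost without any 1 library but unstimulated replicate 1 (adjusted p up to 0.176), and the difference between the genotypes was -0.20 ± 0.20 (adjusted p = 0.999). The remaining lumenal genes passed in neither genotype in the main fit, and Dnajb9 and Sdf2l1 were called lower in D316Y with total-read scaling. Some alternative settings called Hyou1 and, in WT, Sdf2l1 higher, while Dnajb9 and Hsp90b1 were called higher in none. Hyou1 was called higher in 1 of 15 in D316Y and 3 of 15 in WT, and Sdf2l1 in 2 of 15 in WT. Hsp90b1, the Hsp90 chaperone GRP94, was at 0.013 in D316Y and 0.24 in WT. Hyou1, the nucleotide exchange factor of BiP, was at 0.49 in D316Y and 0.60 in WT, with 95% intervals that reached past 1. The J-domain protein gene Dnajb9 (ERdj4) was at 0.063 and 0.19 and Sdf2l1, which encodes a partner of ERdj3, at 0.19 and 0.32 in the same genotypes.

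Manf and Creld2 are induced by ER stress and are known to be partly secreted. Manf had 159, 159 and 151 CPM in D316Y LPS libraries, against 91.9, 89.9 and 113 CPM in D316Y unstimulated libraries. It had 133, 177 and 158 CPM in WT LPS libraries, against 96.6, 107 and 104 CPM in WT unstimulated libraries. All LPS libraries were higher, and unlike most chaperones Manf was not at its peak in the unstimulated replicate 1 libraries. Manf rose 1.60-fold in D316Y (log2 0.68 ± 0.14 SE, adjusted p = 0.00158) and 1.51-fold in WT (0.59 ± 0.14, adjusted p = 0.00421), with 0.16 and 0.086 under total-read scaling. Its exons overlap those of Dcaf1 and of an antisense gene on the other strand by 4.1% and 4.7% of their length, and whether the authors counted by strand is not given in the sources used here. Creld2 was at 0.31 in D316Y and 0.32 in WT (adjusted p = 0.15 and 0.132). It was called higher in 1 of 15 alternative settings in D316Y and 2 of 15 in WT.

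**Figure D4:**
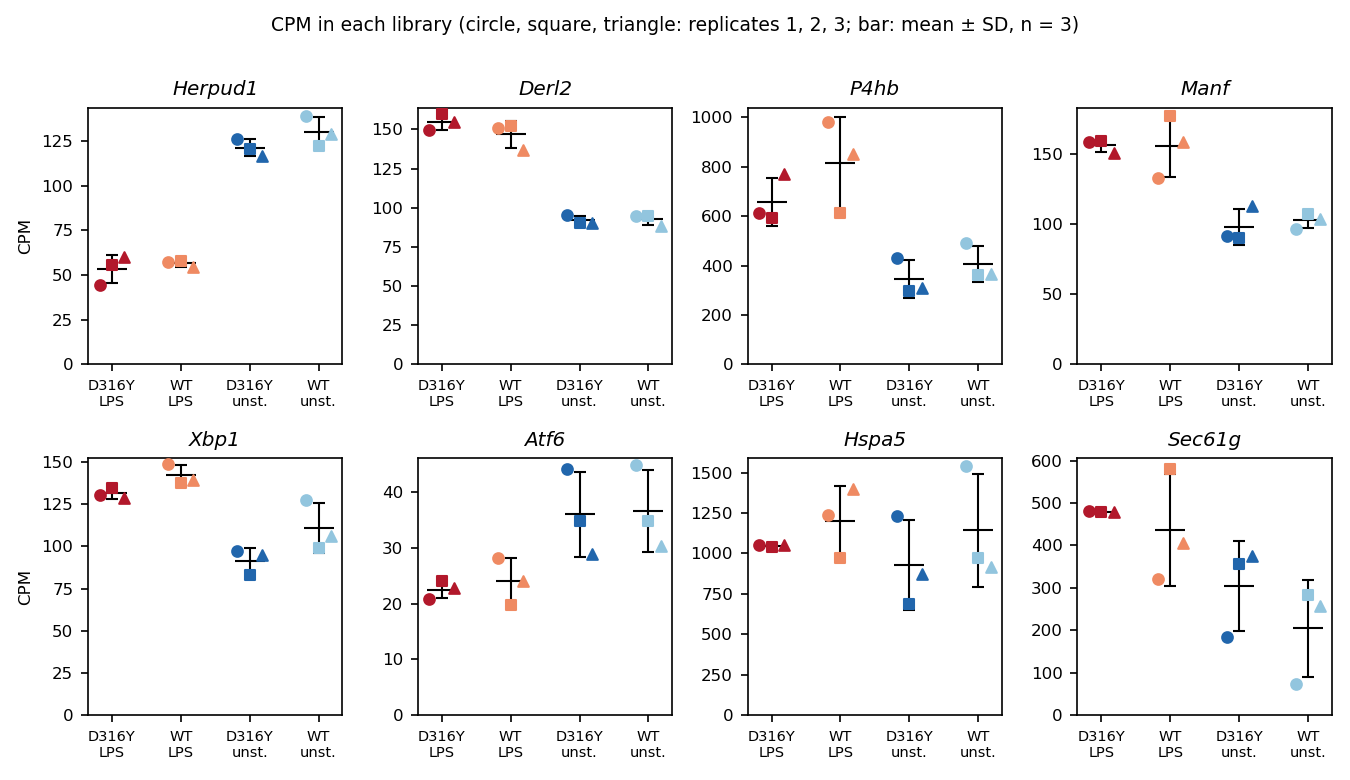
CPM of 8 members in each library, with D316Y LPS, WT LPS, D316Y unstimulated and WT unstimulated groups side by side; circles, squares and triangles are replicates 1, 2 and 3, and bars give the mean ± SD (n = 3). Herpud1 and Atf6 are lower and Derl2, P4hb, Manf and Xbp1 higher in the LPS groups on the authors' scaling (Xbp1 in WT turns negative with total-read scaling), the Hspa5 groups overlap, and Sec61g has its lowest points in the unstimulated replicate 1 libraries.

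The sensors differed from each other. Atf6, whose product is cut from the membrane to act on ER stress elements, had 20.8, 23.98 and 22.7 CPM in D316Y LPS libraries, against 44.1, 34.9 and 28.96 CPM in D316Y unstimulated libraries. It had 28.1, 19.7 and 24.1 CPM in WT LPS libraries, against 44.8, 34.8 and 30.4 CPM in WT unstimulated libraries. All LPS libraries were lower, with a narrow gap between the WT groups. Atf6 fell, with a log2 fold change of -0.66 ± 0.19 (SE) in D316Y (adjusted p = 0.0135) and -0.61 ± 0.19 in WT (adjusted p = 0.0209), or -1.17 and -1.12 with total-read scaling. The call was lost in D316Y without unstimulated replicate 1 or LPS replicate 1 (adjusted p up to 0.0557) and in WT without unstimulated replicate 1, LPS replicate 2 or LPS replicate 3 (up to 0.0922). Xbp1, the transcription factor gene whose message IRE1 splices, had 131, 135 and 129 CPM in D316Y LPS libraries, against 97.2, 82.8 and 94.8 CPM in D316Y unstimulated libraries. It had 149, 138 and 139 CPM in WT LPS libraries, against 127, 99.1 and 106 CPM in WT unstimulated libraries. The LPS groups were higher throughout, and WT unstimulated replicate 1 came nearest to the LPS range. Xbp1 rose by 0.52 ± 0.13 in D316Y (adjusted p = 0.0052) and 0.36 ± 0.13 in WT (adjusted p = 0.0388), at 0.0088 in D316Y with total-read scaling but negative, -0.14, in WT. The WT call was lost without any 1 library but unstimulated replicate 1 (adjusted p up to 0.143). Gene-level values do not separate the spliced from the unspliced message. Ern1 was at -0.10 in D316Y and -0.12 in WT and passed in neither, and was called lower in both with total-read scaling, at -0.61 in D316Y and -0.62 in WT.

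Of the translocon genes, Sec61b rose in both genotypes and Sec61g in WT, and both were lowest in the unstimulated replicate 1 libraries. Sec61b and Sec61g encode the small subunits of the protein-conducting channel. Sec61b had 305, 298 and 293 CPM in D316Y LPS libraries, against 117, 203 and 213 CPM in D316Y unstimulated libraries. It had 231, 345 and 277 CPM in WT LPS libraries, against 87.9, 176 and 171 CPM in WT unstimulated libraries. The groups did not overlap, and unstimulated replicate 1 was by far the lowest library of each genotype. Sec61b rose by 0.80 ± 0.28 (log2, SE) in D316Y (adjusted p = 0.0341) and 1.02 ± 0.28 in WT (adjusted p = 0.0102), with 0.28 and 0.51 under total-read scaling. In D316Y the value was 0.52 without unstimulated replicate 1, and the call was lost without that library or any 1 LPS library (adjusted p up to 0.134). Sec61g had 482, 479 and 479 CPM in D316Y LPS libraries, against 183, 356 and 375 CPM in D316Y unstimulated libraries. In WT it had 321, 580.0 and 405 CPM in LPS libraries, against 73.6, 282 and 257 CPM in unstimulated libraries. The groups did not overlap; the D316Y LPS libraries were almost equal, while the WT LPS libraries spread widely, with replicate 1 lowest. Sec61g rose in WT by 1.27 ± 0.43 (adjusted p = 0.0318) and was at 0.73 ± 0.43 in D316Y (adjusted p = 0.204); with total-read scaling it was 0.21 in D316Y and 0.76 in WT, where it was no longer called (adjusted p = 0.159). The WT value was 0.65 without unstimulated replicate 1, and the call was lost without that library, LPS replicate 2 or LPS replicate 3 (adjusted p up to 0.126).

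Values of these small subunits are uncertain because near-identical copies exist. Gm10320 matches Sec61b at 98.3% over 474 bases, and Gm10177 matches Sec61g at 100% over 420 bases. Gm10320 had 15.4 to 18.04 CPM in D316Y LPS libraries, against 6.74 to 13.6 CPM in D316Y unstimulated libraries, and Gm10177 had 64.1 to 70.4 CPM, against 21.1 to 51.8 CPM, in the same groups. The large channel subunit Sec61a1 was at 0.14 in D316Y and 0.14 in WT and passed in neither. Of the signal sequence receptor genes, whose products help some signal sequences into the channel, Ssr2 had 96.04, 89.01 and 93.1 CPM in D316Y LPS libraries, against 85.8, 61.9 and 65.1 CPM in D316Y unstimulated libraries, and 115, 111 and 98.00 CPM in WT LPS libraries, against 81.8, 69.7 and 78.2 CPM in WT unstimulated libraries. The LPS libraries were all higher, narrowly so over D316Y unstimulated replicate 1. Ssr2 rose by 0.40 ± 0.14 in D316Y (adjusted p = 0.0377) and 0.49 ± 0.14 in WT (adjusted p = 0.0142), with a negative sign under total-read scaling (-0.11 and -0.016). Its D316Y call was lost without any 1 library but unstimulated replicate 1 (adjusted p up to 0.153) and its WT call without unstimulated replicate 2 (0.058). A processed pseudogene, Gm10704, overlaps 12.8% of the Ssr2 exons on the other strand. Ssr1 was at -0.23 in D316Y and -0.081 in WT, and Ssr3 at 0.17 and 0.20; neither passed on the authors' scaling, while with total-read scaling Ssr1 was called lower in both genotypes and Ssr3 in D316Y.

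Members with an ER stress element had LPS values of every kind. Over all genes 19.4% were called higher and 19% lower in D316Y, and 18.1% and 19% in WT. Of these 11, Calr and Dnajb11 rose in both genotypes on the authors' scaling (Dnajb11 was negative with total-read scaling), Herpud1 fell in both, Dnajc3 rose and Derl3 fell in WT (Dnajc3 too was negative with total-read scaling), and 6 passed in neither (Hspa5, Hsp90b1, Canx, Pdia6, Creld2 and Syvn1). Of the 22 members in which none was found or no window was at hand, 8 rose in both (Selenos, Ssr2 and, in WT, Xbp1 were negative with total-read scaling), Atf6 fell in both, Sec61g rose in WT and 12 passed in neither.

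The second question was whether the substitution changed these genes in LPS-treated macrophages. None of 32 members tested was called between D316Y and WT with LPS (limma, and 0 with its voom variant; background 0.0442% of 11306 genes; Derl3 was too low to test). An unadjusted p under 0.05 was reached by 4 members, Dnajb11, Sdf2l1, Dnajc3 and Hsp90b1 (all genes, 6.5%). The values leaned 1 way: 28 of 32 (87.5%) were negative, that is lower in D316Y, against 50.8% of all genes. The median log2 fold change was -0.18 (all genes, -0.0033). The lean was not particular to the members, though not every other ER list shared it. In the 4 other ER lists described below, 91.3% of folding, 70% of degradation, 65.5% of targeting and translocation, and 40% of sensor and PERK-arm genes were negative. All 7 lumenal chaperones, both lectins and all 4 disulfide isomerases were negative. In 6 members every D316Y library lay below every WT library (Dnajb11, Dnajc3, Sdf2l1, Calr, Xbp1 and Ssr2), against 6.79% of all genes, and in none did every D316Y library lie above (5.7% of all genes).

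Dnajb11 had 58.5, 58.9 and 51.5 CPM in D316Y LPS libraries, against 70.3, 70.2 and 71.3 CPM in WT LPS libraries. The groups did not overlap, and the WT libraries were close to one another. The log2 fold change was -0.33 ± 0.11 (SE; unadjusted p = 0.0139, adjusted p = 0.604). Sdf2l1 had 151, 153 and 155 CPM in D316Y LPS libraries, against 178, 185 and 197 CPM in WT LPS libraries. Here too the groups were separate. Its log2 fold change was -0.29 ± 0.11 (unadjusted p = 0.0241, adjusted p = 0.69). Dnajc3 had 41.3, 40.3 and 45.5 CPM in D316Y LPS libraries, against 53.9, 48.2 and 54.9 CPM in WT LPS libraries. The gap was small, between D316Y replicate 3 and WT replicate 2. Its log2 fold change was -0.30 ± 0.12 (unadjusted p = 0.0264, adjusted p = 0.693). Hsp90b1 had 175, 176 and 187 CPM in D316Y LPS libraries, against 291, 186 and 226 CPM in WT LPS libraries. WT replicate 1 stood far above the rest, and WT replicate 2 lay within the D316Y range. Its log2 fold change was -0.36 ± 0.16 (unadjusted p = 0.0382, adjusted p = 0.733). Pdia4 was at -0.36 ± 0.17 (95% interval -0.73 to 0.015) and Canx at -0.33 ± 0.16 (-0.69 to 0.02), with adjusted p of 0.774 and 0.778.

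The lean with LPS rested partly on single WT libraries. WT LPS replicate 1 was the highest of its group for 20 members and WT LPS replicate 2 the lowest for 22. Without WT LPS replicate 1 the members' median was -0.10, and without WT LPS replicate 2 it was -0.25, with 18 members at an unadjusted p under 0.05. No member was called in either case. Without WT LPS replicate 2 the calls over all genes were 16 higher and 6 lower of 11321. The share of all genes at an unadjusted p under 0.05 was not taken without that library, so the 18 members have no background. WT LPS replicate 1 had 0.658% mitochondrial reads, against 0.849% to 1.10% in the other 5 LPS libraries, and the part of this in the lean was not tested. In the authors' deposited table of this comparison no member had an adjusted p under 0.05, against 10 of all 12493 entries. There 12 members had an unadjusted p under 0.05, and the smallest adjusted p among members was 0.222. The share of all entries of that table at an unadjusted p under 0.05 was not taken.

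**Figure D5:**
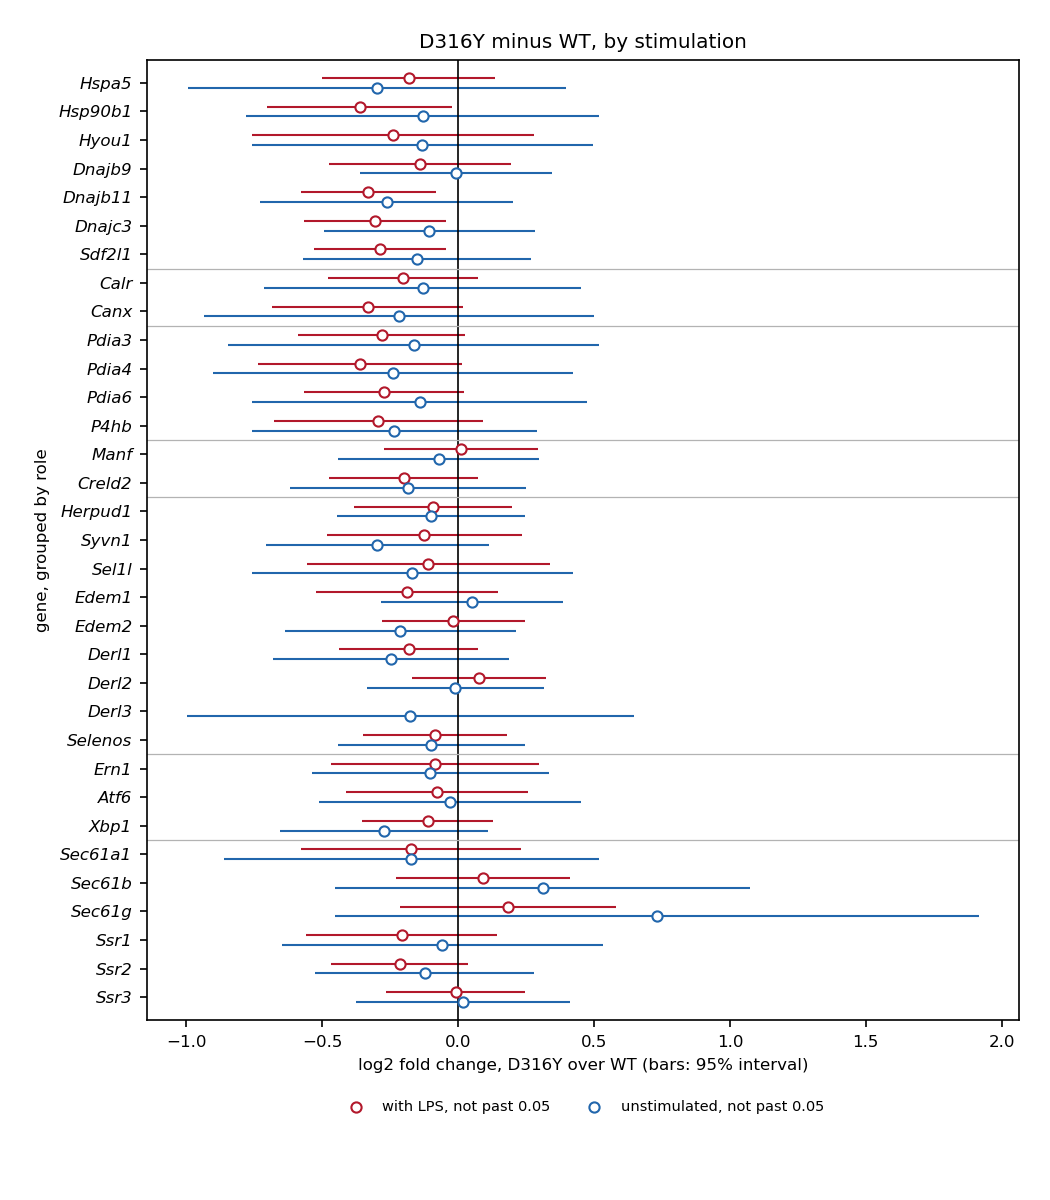
The log2 fold change of each member, D316Y over WT, is shown with its 95% interval with LPS (red) and unstimulated (blue); open points did not pass an adjusted p of 0.05, and Derl3 was not tested with LPS. Most points lie left of 0 in both states, Sec61b and Sec61g lie right of it, and no point is filled.

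The same question in unstimulated macrophages gave no call: 0 of 33 members passed (limma, and 0 with its voom variant; background 0.00868% of 11525 genes), and none reached an unadjusted p under 0.05 (all genes, 2.92%). The values were negative in 29 of 33 (87.9%, against 53.8% of all genes), with a median of -0.13 (all genes, -0.0205). In the other ER lists 87% of folding, 90% of degradation, 55.2% of targeting and translocation, and 90% of sensor and PERK-arm genes were negative. Xbp1 was the 1 member without overlap, at 97.2, 82.8 and 94.8 CPM in D316Y unstimulated libraries, against 127, 99.1 and 106 CPM in WT unstimulated libraries, with all D316Y libraries below WT (5.18% of all genes did so, and 2.95% the opposite). Its log2 fold change was -0.27 ± 0.17 (SE; 95% interval -0.65 to 0.11, adjusted p = 0.942). The smallest unadjusted p was that of Syvn1, with 32.9, 24.2 and 23.4 CPM in D316Y unstimulated libraries, against 36.9, 30.2 and 30.95 CPM in WT unstimulated libraries. These groups overlapped through D316Y replicate 1. Its log2 fold change was -0.30 ± 0.18 (unadjusted p = 0.134). Sec61g had the value furthest from 0, 0.73 ± 0.52 with an interval of -0.45 to 1.92; Derl1 was at -0.25 ± 0.19, Dnajb11 at -0.26 ± 0.20 and Edem2 at -0.21 ± 0.19, all with an adjusted p of 0.942.

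Same-numbered unstimulated libraries of the genotypes deviated together. With the replicate number as a block 9 members reached an unadjusted p under 0.05 and 0 were called (all genes, 3 higher and 3 lower of 11525). The median rested on single libraries: with D316Y replicate 1 left out it was -0.32, with WT replicate 1 left out -0.016, and with WT replicate 2 left out -0.22, while leaving out D316Y replicate 2 gave -0.038 and D316Y replicate 3 gave -0.05, and 0 members were called each time. Without both replicate 1 libraries the median was -0.19, with 15 members at an unadjusted p under 0.05 and 0 called (all genes, 2 higher and 8 lower of 11655). Adding the block then called 1 member, Sec61g (higher in D316Y, adjusted p = 0.031), and gave 18 at an unadjusted p under 0.05. That setting raised calls over all genes too, to 134 higher and 40 lower of 11655. The share of all genes at an unadjusted p under 0.05 was not taken for these settings. In the authors' deposited table of this comparison no member had an adjusted p under 0.05, against 7 of all 12493 entries. There 6 members had an unadjusted p under 0.05, and the smallest adjusted p among members was 0.21. The share of all entries of that table at an unadjusted p under 0.05 was not taken.

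The third question was whether the LPS response itself differed between the genotypes. No member was called for the interaction (limma, and 0 with its voom variant; background 0% of 11918 genes), and none reached an unadjusted p under 0.05 (all genes, 2.11%). The differences, D316Y response minus WT response, ran from -0.55 for Sec61g to 0.53 for Derl3, with a median of -0.058 (all genes, 0.01). Of genes that passed with LPS in both genotypes, the difference for Herpud1 was 0.0056 ± 0.18 (95% interval -0.39 to 0.40), for Derl2 0.087 ± 0.16 (-0.25 to 0.43) and for Manf 0.083 ± 0.20 (-0.34 to 0.51). Edem1 had the smallest unadjusted p, with -0.24 ± 0.21 (unadjusted p = 0.279); Edem2 was at 0.20 ± 0.22 and Xbp1 at 0.16 ± 0.18, and every member's adjusted p was at least 0.999.

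Other ER genes, listed by function and not by how they moved, were read alongside. All LPS directions of these genes are on the authors' scaling. For comparison, 19.4% of all genes were called higher and 19% lower in D316Y, and 18.1% and 19% in WT. Of 23 other folding genes tested, 5 rose (21.7%) and 1 fell (4.35%) in D316Y. In WT 6 rose (26.1%) and 0 fell. None that rose turned negative with total-read scaling. Ero1l, the oxidase that recharges protein disulfide isomerase, rose by 2.21 in D316Y and 2.28 in WT (adjusted p = 2.92e-06 and 2.58e-06), a larger change than that of any of the 33 members. The cyclophilin gene Ppib rose by 0.86 in D316Y and 0.87 in WT, and Erp44, which retains client proteins in the early secretory pathway, by 0.85 and 0.65. Of 20 other degradation genes 6 rose (30%) and 3 fell (15%) in D316Y, and 4 rose (20%) and 3 fell (15%) in WT. With total-read scaling 3 of the 6 in D316Y turned negative. Ubac2 was at 1.42 in D316Y and 1.37 in WT, and the J-domain gene Dnajb14 at -1.51 and -1.24.

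Of 29 genes of targeting, translocation, signal peptidase and oligosaccharyltransferase, 5 rose (17.2%) and 1 fell (3.45%) in D316Y. In WT 7 rose (24.1%) and 1 fell (3.45%). With total-read scaling 2 of the 5 and 3 of the 7 turned negative. The oligosaccharyltransferase subunit genes Krtcap2 (0.57 in D316Y and 0.49 in WT, there negative with total-read scaling), Ddost (0.68 and 0.54) and Ostc (0.65 and 0.73) were among those that rose, and Tusc3 (-0.89 and -0.64), of the same enzyme, fell. Of 20 sensor partners and PERK-arm genes 8 rose (40%) and 4 fell (20%) in D316Y. In WT 6 rose (30%) and 4 fell (20%). With total-read scaling 1 of the 8 and 2 of the 6 turned negative. Ddit3, the transcription factor CHOP, rose by 1.04 in D316Y and 0.92 in WT, as did Traf2, an adaptor that binds IRE1 (1.24 and 1.06). Chac1, a glutathione-degrading enzyme known as a target of the PERK arm, fell in both, with -0.88 in D316Y and -1.98 in WT. No gene of these 4 lists was called in either genotype comparison or for the interaction.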

How the data were processed

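RNA was measured in 12 libraries, 3 in each of 4 groups. The deposited values are log2 CPM, with 0.5 reads added, on the authors' effective library sizes, as read from the values: every value under 200 reads gave a whole number of reads within 0.01. The authors' deposited tables also hold log2 fold changes, p-values and adjusted p-values for the genotype comparisons. The tools, per the submitters' processing notes, include STAR 2.5.1a, featureCounts 1.4.6-p5, bcl2fastq, Subread, limma and edgeR, with no roles given. Genome build, annotation and strand setting were not given in the sources used here. Each table had 12493 entries, 52 with a repeated identifier, which left 12441 genes.

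A gene was tested where the mean of either compared group reached 0 log2 CPM, with limma 3.58.1 in R 4.3.3 (trended, robust, two-sided, Benjamini-Hochberg over all genes tested, threshold 0.05). Genotype comparisons used the 6 libraries of a state; LPS comparisons and the interaction came from 1 fit of all 12. The procedure was tested on simulated data. RPKM values used GENCODE M21 exon lengths (GRCm38), and gene positions come from that annotation. Promoters are RefSeq's. Members and lists were chosen with earlier results of these data known; full statistics went to the 12 members with the smallest adjusted p in the WT LPS comparison and the 6 with the smallest p in each other one, with other members shown by role. Libraries with the same number deviated together between the unstimulated genotypes (correlations over genes 0.656, 0.63 and 0.2). That the numbers pair libraries is a hint from the data and not the labels. The main fits were not paired, and the replicate block was used only as an alternative. Alternatives were other filters, scalings, variance models, priors, a replicate block and leaving out libraries.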

Additional observations from a re-analysis of the deposited data

How the results depend on the processing

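Of the members' values under alternatives, 2415 kept their direction and side of the threshold, 73 lost a call and 34 gained one in the same direction, 184 changed sign with no call under either setting, and 13 changed sign with a call under one setting. All of these 13 came with total-read scaling, chosen after the data were seen. In D316Y these were Dnajb9 (-0.45), Dnajb11 (-0.084), Dnajc3 (-0.33), Sdf2l1 (-0.33), Selenos (-0.091), Ssr2 (-0.11) and Ssr3 (-0.35), and in WT Dnajb11 (-0.011), Dnajc3 (-0.13), Syvn1 (-0.47), Selenos (-0.097), Xbp1 (-0.14) and Ssr2 (-0.016). That scaling gave 0 members higher and 11 lower with LPS in D316Y (all genes, 5863 of 11795 lower), and 0 and 8 in WT (all genes, 5878 of 11663 lower). Without both unstimulated replicate 1 libraries 16 were higher in D316Y (all genes, 2639 of 11890). Leaving out each library in turn gave 5 to 12 higher and 1 to 3 lower in D316Y (all genes, 1789 to 2212 and 1785 to 2043). In WT it gave 6 to 15 higher and 2 to 4 lower (all genes, 1733 to 2084 and 1824 to 2125). It gave 0 called for either genotype comparison and the interaction. The replicate block gave 9 higher and 2 lower in D316Y (all genes, 2263 and 2160 of 11795) and 10 and 4 in WT (all genes, 2067 and 2119 of 11663). It gave 0 members for the genotype comparisons and the interaction. With both replicate 1 libraries left out too it called 1 member between the unstimulated genotypes (all genes, 134 higher and 40 lower of 11655). Same-numbered libraries did not deviate together between the LPS genotypes (-0.14, 0.0859 and -0.0136), nor between LPS and unstimulated libraries in D316Y (-0.189, -0.248 and -0.102) or in every WT pair (0.422, 0.231 and -0.0922). The cause of these changes was not tested. With 3 libraries a group, differences the size of those between the genotypes were not resolved, and Derl3 lies near the lower limit of what was tested.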

Other observations

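Outside the module, 4 tested genes also hold an ER stress element and 5 the element II, and their LPS values were read after the data were seen. Of the 4, 1 was called higher and 1 lower in D316Y, and 0 and 2 in WT. Of the 5, 2 were called higher and 0 lower in each genotype. The genes named here are examples and include the largest changes. Adcy3, an adenylyl cyclase gene with an ER stress element, fell by 2.10 on the log2 scale in D316Y (adjusted p = 0.000142) and by 1.95 in WT (adjusted p = 0.000276; limma). Rcl1, a gene with the element II, rose by 2.26 in D316Y (adjusted p = 1.41e-07) and 1.94 in WT (adjusted p = 5.79e-07). Alg12, a mannosyltransferase gene of N-glycan assembly with an ER stress element, rose by 0.42 in D316Y (adjusted p = 0.0159; negative with total-read scaling) and stood at 0.26 in WT (adjusted p = 0.123).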
